A study of Arabidopsis thaliana with 9 samples.

Results

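Seedlings with an RNA interference (RNAi) construct against SRT1 were compared with wild type seedlings, and the comparison comprised 1112 gene entries, out of 2507 genes listed anywhere in the series. They were every entry, with a regular locus, of the 2 sheets deposited for the RNAi comparison, which are titled R-up and R-down. Of these, 1036 were nuclear genes, 55 chloroplast genes and 21 mitochondrial genes. A further 14 entries, whose locus cell holds spaces, were left out.

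RNA came from whole Arabidopsis thaliana seedlings aged 14 days (leaf, stem and root together) grown on MS medium in a growth chamber. The groups were wild type of the Columbia accession (col), the SRT1 RNAi line RNAi-1 (R-AtSRT1) and the SRT1 overexpression line OX-SRT1-1 (OX-AtSRT1), with 3 libraries in each of the 3 groups. All groups were untreated, and each transgenic genotype was represented by a single line, so an effect of the transgene and of that line cannot be told apart. The OX sheets are used here to ask which genes they also list. Their wild type column also serves to identify the value columns. Their values are given for SRT1 and for genes that changed in opposite directions.

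SRT1 is a sirtuin, one of the NAD-dependent deacetylases that remove acetyl groups from histones and other proteins. In Arabidopsis it is a nuclear protein. The genes described below belong mainly to families that build and loosen the cell wall, and to the seed maturation programme. Expansins loosen the wall, xyloglucan endotransglucosylases/hydrolases (XTH) cut and rejoin its xyloglucan chains, and extensins and arabinogalactan proteins are glycoproteins of its matrix. Seed maturation genes encode storage proteins, oil body proteins and late embryogenesis abundant (LEA) proteins. They are normally switched off after germination, and abscisic acid raises many of them through promoter sequences called ABA-responsive elements (ABRE).

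The deposited sheets give 1 FPKM value per group and gene (fragments counted per length of transcript and per mapped fragment, so that levels compare between genes), with no value per library. No SD could be given, no new test could be made, and the depth of the libraries is unknown. Each listed gene differed at least 2-fold, and had a q-value of at most 0.0496 in the authors' deposited table. The sheets hold only genes past these limits, so a gene outside them has no value here, and its absence says nothing of whether it changed. The labels do not state whether replicate libraries were made from different plants, so the deposited q-values may measure technical spread.

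The labels of the 2 value columns swap between the sheets. In R-up the first column is labelled col and the second r5. In R-down the first is labelled r5 and the second col. By these labels every entry of both sheets would be higher in RNAi. The second column, however, is the same group in both sheets as far as its values show. For 570 entries that are also in the OX sheets, it was compared with the wild type column there. The log2 ratio of the 2 columns had a median of -0.08, and 569 of the 570 entries lay within 0.1 of it. Directions are therefore given below as the first column relative to the second, and "lower" or "higher" always means lower or higher in the first column. If the second column is wild type throughout, the first is the RNAi line, and the titles R-up and R-down are the reverse of the directions in them.

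The exception among the 570 was SRT1 itself (AT5G55760, chromosome 5, 22567222 to 22570963, protein-coding). It was listed at 2.37 FPKM in the first column, labelled r5, and 0.419 FPKM in the second, labelled col. The group labelled RNAi thus had 5.67-fold the level of the group labelled wild type, against what the label says. Its second value also did not match the wild type value of 1.75 FPKM in the OX sheet, where the group labelled OX had 6.05 FPKM. It was the 1 entry whose deposited log2 size, 2.37, differed from the log2 of its values, 2.5, by over 0.001. Its entry therefore gives no check of the knockdown. Every direction below rests on the column match and not on this gene.

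Among the 1036 nuclear entries, 659 (63.6%) were lower and 377 (36.4%) were higher in the first column. Lower genes had a median fold of 2.42 and a median level of 1.48 FPKM in the first column against 3.75 FPKM in the second. Higher genes had a median fold of 2.30 and a median of 2.65 FPKM against 1.06 FPKM. Most differences were thus close to the authors' 2-fold limit, and 359 of the lower and 236 of the higher genes differed by less than 2.5-fold. A difference of 4-fold or more was reached by 78 lower and 39 higher genes. Many entries were weakly transcribed. In the column where they were higher, 92 lower and 57 higher genes did not reach 1 FPKM, whereas 70 lower and 16 higher genes reached 50 FPKM. Protein-coding genes made up 984 of the entries, which is 3.59% of the 27444 annotated nuclear protein-coding genes. By direction, 2.33% of annotated genes were listed as lower and 1.25% as higher.

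**Figure D1:**
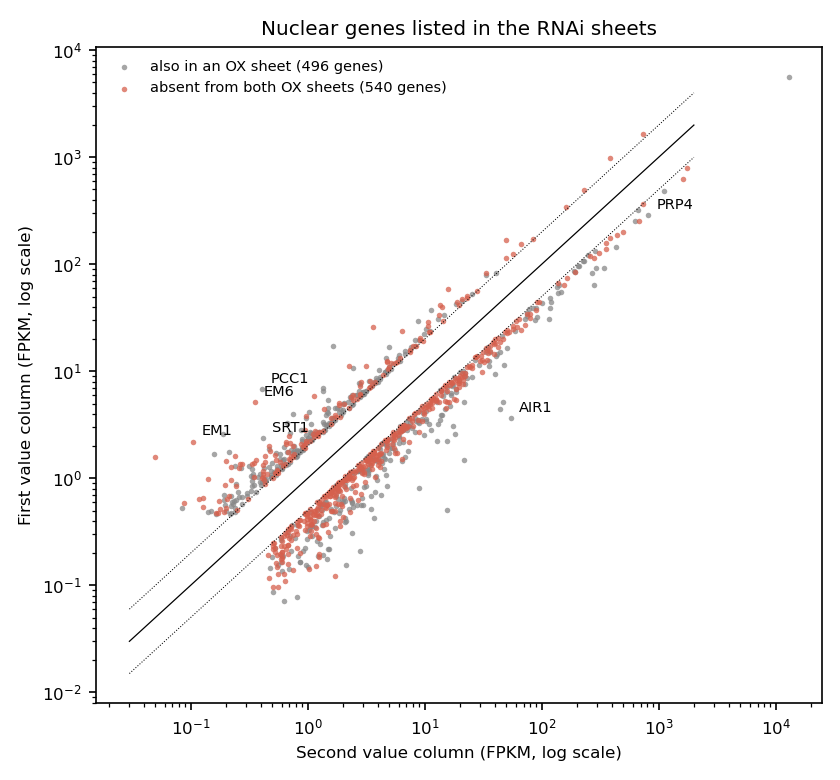
FPKM of each of the 1036 nuclear entries in the first value column (vertical, log scale) against the second (horizontal, log scale), with the line of equality and dotted lines at 2-fold. The empty band between the dotted lines is the authors' limit, and genes absent from the OX sheets (540, red) lie along its edges as do those also listed there (496, grey).

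Of the 1036 nuclear entries, 540 (52.1%) were absent from both OX sheets and were listed for the RNAi line alone. These were 389 of the 659 lower genes (59%) and 151 of the 377 higher genes (40.1%). The 389 lower genes had a median fold of 2.32, with 22 of them at 4-fold or more, against a median of 2.82 and 56 such genes among the 270 lower genes that the OX sheets also list. The 151 higher genes had a median fold of 2.37, with 22 at 4-fold or more, against 2.28 and 17 among the other 226. Well-transcribed genes were present on both sides: 32 of the 389 and 13 of the 151 reached 50 FPKM in their higher column. All comparisons share the wild type libraries, and a gene missing from the OX sheets may have fallen just short of their limits. No test of a difference between the lines could be made.

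Listed cell wall genes were nearly all lower. Their lists covered expansins, XTH enzymes, arabinogalactan proteins, extensins and proline-rich proteins, pectin-modifying enzymes and class III peroxidases. Together they held 91 listed genes, of which 88 were lower and 3 higher, with a median log2 ratio of -1.38, beside 63.6% lower among all nuclear entries. Of the 88 lower genes, 49 were absent from the OX sheets, a share close to the 59% of all lower nuclear entries.

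Expansins were listed with 10 of 38 annotated members (26.3%, against 3.59% of all protein-coding genes), and all 10 were lower. EXPA8 (AT2G40610) had the largest fold, at 9.45 FPKM in the first column and 40.3 FPKM in the second, 4.26-fold lower. EXPA18, an expansin of root hair cells, was at 0.363 against 1.35 FPKM. EXPB1, a beta-expansin, was at 0.579 against 1.94 FPKM. The family thus spanned weakly and well transcribed members. EXPB3 was at 8.36 against 21.3 FPKM and EXPA11 at 7.7 against 19.6 FPKM. Of the 10 genes, 8 were absent from the OX sheets, beside 59% of all lower nuclear entries. EXPA8 and EXPA7, the latter also a root hair expansin, were the others.

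The 6 listed XTH genes (of 33 annotated, 18.2%) were all lower as well. XTH9 (AT4G03210) was the most strongly transcribed, at 128 FPKM against 307 FPKM, 2.41-fold lower. XTH16 was at 73.7 against 164 FPKM. The largest fold, 10.6, belonged to XTH12, at 0.0771 against 0.818 FPKM, a level at which few reads are counted. XTH9, XTH14 and XTH16 were absent from the OX sheets. In both families the best transcribed members differed by just over 2-fold and the folds above 3 came, EXPA8 apart, from genes below 3 FPKM.

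Arabinogalactan proteins were listed with 13 of 60 members (21.7%), all lower, and 9 of them were absent from the OX sheets. They include fasciclin-like proteins (FLA), which carry a domain thought to serve in cell adhesion. FLA10 was at 0.397 against 2.11 FPKM, 5.32-fold lower. AGP41 was at 1.52 against 6.43 FPKM and AGP31 at 32 against 90.5 FPKM. FLA1 was at 7.69 against 21.2 FPKM. AGP16, named after its values were seen because it was the strongest of those absent from the OX sheets, was at 365 against 731 FPKM, which is 2.00-fold and at the limit.

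**Figure D2:**
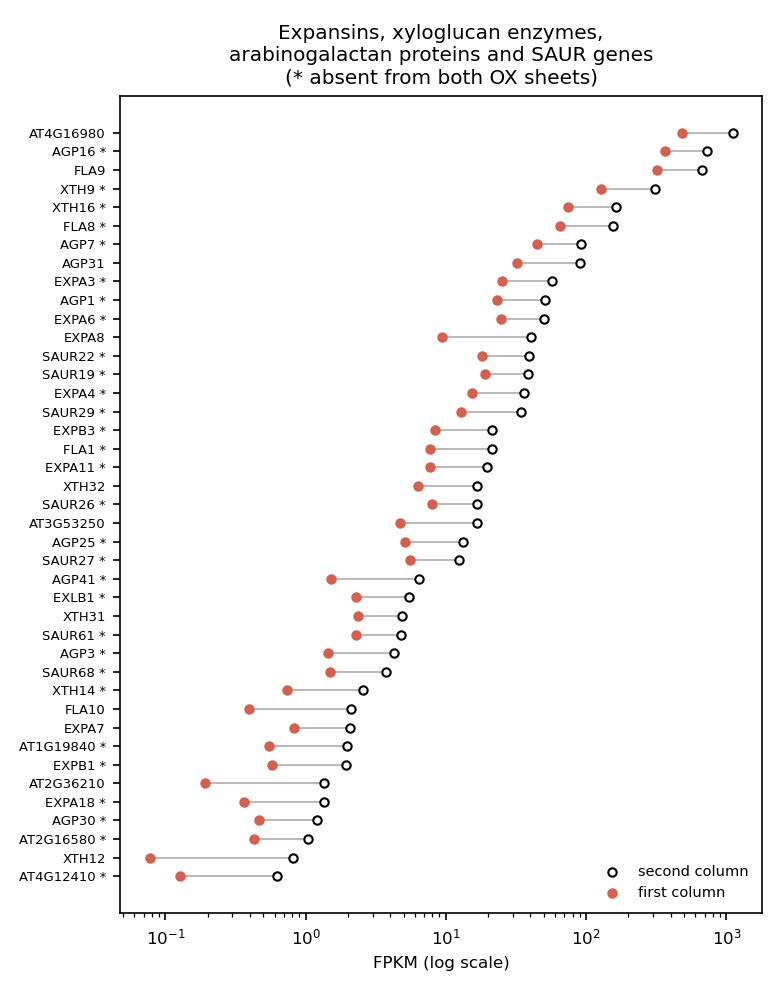
FPKM (log scale) of every listed expansin, XTH, arabinogalactan and SAUR gene in the second column (open circles) and the first column (red), ordered by the second, with an asterisk for genes absent from both OX sheets. Each red point lies left of its open circle, from AT4G16980 at 483 against 1111 FPKM at the top to AT4G12410 at 0.127 against 0.629 FPKM at the bottom.

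Extensins and proline-rich proteins were listed with 25 of 85 members (29.4%), all lower, with a median log2 ratio of -1.92. EXT6 was at 0.43 FPKM against 3.72 FPKM, 8.64-fold lower, and EXT11 and EXT13 followed at 8.31-fold and 6.74-fold. LRX1, a leucine-rich repeat extensin of root hairs, was at 0.244 against 1.28 FPKM. In contrast to the expansins, only 4 of these 25 genes were absent from the OX sheets. Extensins are built from near-identical repeats, and the split of reads between copies is uncertain.

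Pectin-modifying enzymes were listed with 25 of 257 members (9.73%), 22 lower and 3 higher, and 20 of them were absent from the OX sheets. They include pectin methylesterases, which remove methyl groups from pectin, their inhibitors, and enzymes that cut the pectin chain. PME24 was at 0.11 against 0.644 FPKM and PME46 at 0.278 against 1.25 FPKM, both absent from the OX sheets. PME17 was better transcribed, at 3.94 against 14 FPKM. The 3 higher genes had folds between 2.28 and 2.57.

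Class III peroxidases, secreted enzymes that use hydrogen peroxide and can cross-link wall polymers, were listed with 12 of 76 members (15.8%), all lower. PER71 (AT5G64120) was at 63.8 against 282 FPKM, 4.41-fold lower. Its neighbours PER69 and PER70 were also listed as lower, by 2.31-fold and 2.17-fold, and the 3 genes form an unbroken run on chromosome 5. PER35 was at 0.195 against 1.24 FPKM, 6.38-fold lower, and was 1 of the 7 that were absent from the OX sheets. Dirigent proteins, which guide the coupling of lignin and lignan precursors, gave 6 of 26 (23.1%), all lower, with folds of 2.01 to 3.42. That list was put together after the values were seen.

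Markers of root cells moved with the cell wall genes. Of 46 markers of root hairs and the endodermis, 12 (26.1%) were listed, all lower, and the other markers have no value here. Their summed level was 12.6 FPKM in the first column and 35 FPKM in the second. CASP1, a Casparian strip protein of the endodermis, was at 6.40 against 15.4 FPKM, and CASP5 was at 0.351 against 1.15 FPKM. The Casparian strip protein family as a whole, a list put together after the values were seen, gave 6 of 39 (15.4%), all lower. RHS13, a root hair gene, was at 1.27 against 4.14 FPKM. In whole seedlings, fewer cells of a type and less RNA per cell cannot be told apart. Of the 12 markers, 8 are themselves cell wall genes. Without them, 80 of 83 wall genes were lower, with a median log2 ratio of -1.37, and 19 of the 83 reached 50 FPKM in the second column. The marker list does not hold every gene of root cells, so leaving its members out does not remove all root genes. The part of root tissue in the result was not tested. Of 27 stomatal and leaf epidermis markers 2 were listed (7.41%), BASL as higher and PDF1 as lower. Of 79 nuclear genes of light harvesting and the photosystems 2 were listed (2.53%), both lower. They were LHCB1.2 at 5644 against 12999.9 FPKM and LHCB2.4 at 622 against 1601 FPKM, antenna proteins that bind chlorophyll. No gene of the Rubisco small subunit and Calvin cycle list (17 genes) or of 364 nuclear-encoded ribosomal proteins was listed.

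The 2 largest folds on the lower side lay in a cluster of lipid transfer and hybrid proline-rich protein genes on chromosome 4. Lipid transfer proteins are small secreted proteins that bind lipids, and the hybrid forms carry a proline-rich stretch as well. Of 144 annotated genes of this list, 24 (16.7%) were listed, 22 lower and 2 higher. The cluster runs from AZI1 (start at 7401109) to AIR1 (end at 7439805) and holds 7 of them. AT4G12500 had the largest fold of all lower nuclear genes, at 0.502 against 15.4 FPKM, 30.7-fold lower. AIR1, an auxin-induced gene of root cultures, was at 3.68 against 54.8 FPKM, 14.9-fold lower. AT4G12490 was at 4.43 against 43.8 FPKM. The fold did not follow the level within the cluster. AZI1, a gene of the defence priming response to azelaic acid, was the strongest, at 91.4 against 340 FPKM, and was 3.72-fold lower. EARLI1 was at 39.4 against 117 FPKM. AT4G12520, the 1 gene of the 7 that the OX sheets do not list, was at 3.13 against 6.6 FPKM. The 7 genes are close paralogs, so reads may have been divided wrongly among them.

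**Figure D3:**
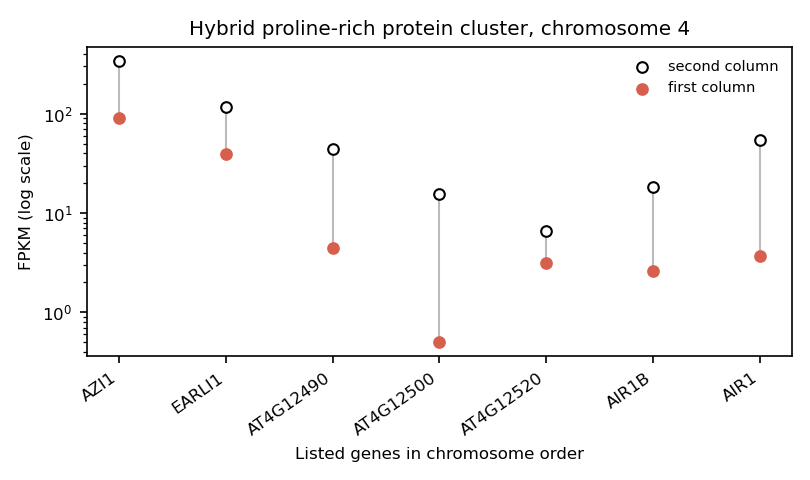
FPKM (log scale) of the 7 listed genes of the chromosome 4 cluster, in chromosome order, in the second column (open circles) and the first column (red). The gap is widest at AT4G12500, 0.502 against 15.4 FPKM, and narrowest at AT4G12520, 3.13 against 6.6 FPKM.

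Other families of secreted or defence proteins were listed on the lower side. The lists in this paragraph were put together after the values were seen. The shares listed were 21.7% for chitinases, 22.2% for berberine bridge enzyme-like proteins, 11.6% for jacalin-type lectins and 26.9% for glutaredoxins. The share of all protein-coding genes was 3.59%. Chitinases, which cut the chitin of fungal walls, gave 5 of 23, all lower, led by AT2G43620 at 1.5 against 21.9 FPKM, 14.6-fold lower. Berberine bridge enzyme-like proteins, oxidases of which some act on wall oligosaccharides, gave 6 of 27, all lower. AT1G26380 was at 0.305 against 2.39 FPKM, and the nearby AT1G26410 and AT1G26420 were 6.54-fold and 6.11-fold lower. Most of these genes were in the OX sheets as well. Jacalin-type lectins, sugar-binding proteins, gave 5 of 43, all lower, and here 4 were absent from the OX sheets. JAL8, JAL9 and JAL10 lie side by side on chromosome 1 and were 3.31-fold, 5.25-fold and 3.99-fold lower. Glutaredoxins, small redox proteins, gave 7 of 26, all lower, and GRXC13 was the strongest of them, at 5.38 against 18.5 FPKM.

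Growth hormone genes were mostly lower, and most were listed for the RNAi line alone. SAUR genes, small transcripts that auxin raises and that promote cell expansion, gave 12 of 80 (15%), all lower. Of these, 10 were absent from the OX sheets, beside 59% of all lower nuclear entries. The SAUR list was put together after the values were seen. SAUR29 was at 12.9 against 34.2 FPKM and SAUR68 at 1.48 against 3.71 FPKM. AT2G36210 had the largest fold, 7.02, at 0.193 against 1.36 FPKM. SAUR genes lie in groups of close copies, which may share reads. The wider auxin list gave 16 of 194 (8.25%), 15 of them lower, and the 12 SAUR genes are among those 15. Few of its other members were thus listed. The 1 higher gene was IAA34, a member of the auxin repressor family, at 1.48 against 0.363 FPKM. The gibberellin, cytokinin and brassinosteroid list gave 12 of 138 (8.70%), 9 lower and 3 higher, beside 63.6% lower among all nuclear entries. All 9 lower genes were absent from the OX sheets, again beside 59% of all lower nuclear entries. GA2OX2 and GA2OX4, which inactivate gibberellin, were 2.55-fold and 2.67-fold lower. GASA6, a gibberellin-regulated peptide gene, was well transcribed, at 187 against 440 FPKM. Aquaporins, water channels, gave 7 of 41 (17.1%) and split by type. The PIP, NIP and TIP4 types gave 5 lower genes, among them PIP2-8 at 6.86 against 18.4 FPKM. The 2 TIP3 genes, water channels of protein storage vacuoles, were higher. TIP3-2 was at 1.61 against 0.241 FPKM.

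Seed maturation and storage genes were the main group on the higher side. Of 109 annotated members, 25 (22.9%) were listed, 3 lower and 22 higher, beside 36.4% higher among all nuclear entries. Of the 22, 18 were absent from the OX sheets, beside 40.1% of all higher nuclear entries. EM1 (AT3G51810), an LEA protein of the dry seed, was at 2.2 FPKM in the first column against 0.106 FPKM in the second, 20.8-fold higher. EM6 (AT2G40170), of the same family, was at 5.18 against 0.356 FPKM, 14.6-fold higher. These genes were close to silent in the second column and low in the first. LEA7, in contrast listed in the OX sheets too, was at 1.76 against 0.212 FPKM. AT2S3 (also called SESA3), a seed albumin that stores nitrogen, was at 0.987 against 0.14 FPKM. SESA5, another albumin, was at 5.92 against 1.15 FPKM. Both storage albumins were thus 5-fold or more higher. PAP85, a vicilin-type storage protein, was at 11.2 against 2.24 FPKM. Oleosins coat seed oil bodies, and OLEO1 and OLEO2 were 2.2-fold and 3.01-fold higher. Over the 25 listed genes the summed level was 65.5 FPKM in the first column and 18.1 FPKM in the second, and 4 of them reached 5 FPKM in their higher column.

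**Figure D4:**
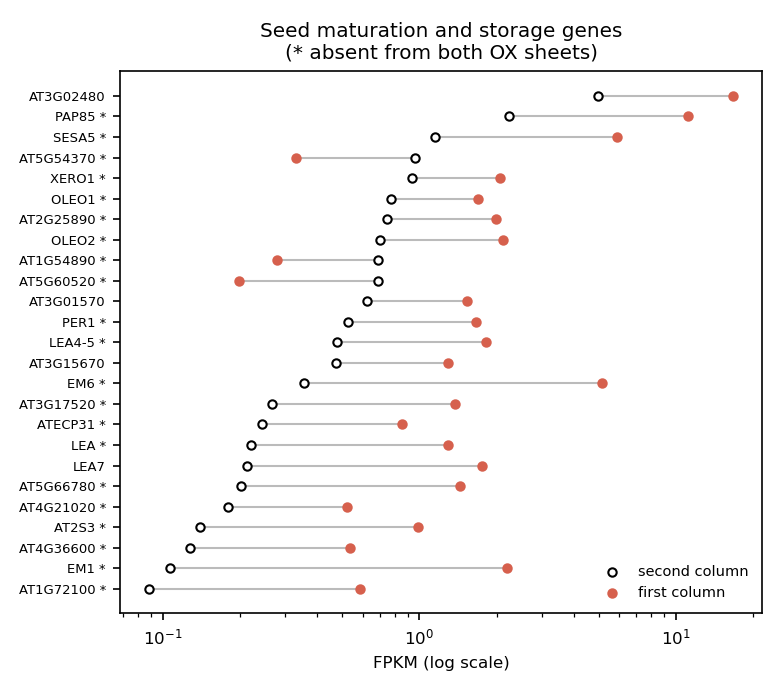
FPKM (log scale) of the 25 listed seed maturation and storage genes in the second column (open circles) and the first column (red), with an asterisk for genes absent from both OX sheets. For 22 genes the red point lies to the right, EM1 being the widest at 2.2 against 0.106 FPKM, and for 3 it lies to the left.

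The upstream sequences of 4 of these genes are shown because they carry the elements by which abscisic acid and the seed regulators are known to act. AT2S3 and OLEO1 had the most matches to these elements among the 22 higher genes, so the 4 do not stand for the group. AT3G02480, at 16.7 against 4.97 FPKM, and AT5G66780 had 0 matches. Each is the 250 bases before the gene start in the RefSeq annotation of TAIR10.1, on the strand of the gene. They are chr3:19214472-19214721 on the plus strand for EM1, chr2:16780369-16780618 on the minus strand for EM6, chr4:12900180-12900429 on the plus strand for OLEO1, and chr4:13611546-13611795 on the plus strand for AT2S3. No other annotated protein-coding gene overlaps them. Other kinds of gene were not checked. Capitals mark matches, on either strand, to an ABRE (ACGTGGC or ACGTGTC) or to the RY element (CATGCA), which seed regulators of the B3 family bind. Overlapping matches are counted singly.
EM1: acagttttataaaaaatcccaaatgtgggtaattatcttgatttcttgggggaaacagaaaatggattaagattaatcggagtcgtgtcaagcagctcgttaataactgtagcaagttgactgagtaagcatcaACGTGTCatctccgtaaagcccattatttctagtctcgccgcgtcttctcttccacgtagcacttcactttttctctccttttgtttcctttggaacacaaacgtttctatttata
EM6: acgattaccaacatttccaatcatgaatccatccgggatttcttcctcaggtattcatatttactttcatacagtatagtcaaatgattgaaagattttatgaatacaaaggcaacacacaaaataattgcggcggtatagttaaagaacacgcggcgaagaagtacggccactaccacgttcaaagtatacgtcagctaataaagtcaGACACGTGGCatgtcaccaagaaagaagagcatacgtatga
OLEO1: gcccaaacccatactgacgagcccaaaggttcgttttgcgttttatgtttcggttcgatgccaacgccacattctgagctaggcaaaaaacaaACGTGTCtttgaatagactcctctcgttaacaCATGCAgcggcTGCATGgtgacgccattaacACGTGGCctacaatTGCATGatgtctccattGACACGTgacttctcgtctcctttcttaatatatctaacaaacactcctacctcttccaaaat
AT2S3: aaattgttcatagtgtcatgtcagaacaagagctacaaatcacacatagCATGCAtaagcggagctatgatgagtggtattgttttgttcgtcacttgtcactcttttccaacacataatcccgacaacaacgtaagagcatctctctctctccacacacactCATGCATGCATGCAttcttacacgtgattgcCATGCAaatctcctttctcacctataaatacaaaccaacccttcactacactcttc

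The EM1 sequence held 1 ABRE, the EM6 sequence 2 overlapping ones on opposite strands, and OLEO1 held 3 ABRE and 3 RY elements. AT2S3 held no ABRE and 7 RY elements, of which 5 overlap in 1 stretch. Among the 22 higher seed genes, 15 (68.2%) had an ABRE in this window, against 6.39% of the 27443 annotated protein-coding genes with a window. The share was 15.4% of the 344 higher protein-coding genes, 24.5% of the 143 higher genes absent from the OX sheets, and 5.47% of the 640 lower genes. The 22 seed genes are counted within the 344, and 18 of them within the 143, so these shares are not independent. The G-box CACGTG, which can overlap an ABRE, was in 6.49% of all windows and 13.7% of those of higher genes. The RY element was in 8.43% of all windows, 10.8% of those of higher genes and 16.1% of those of lower genes. The W-box (TTGACC or TTGACT), which WRKY factors bind, was in 28.4% of all windows, 27.3% of those of higher and 34.8% of those of lower genes. The evening element AAAATATCT was in 2.36% of all windows, 2.62% of those of higher and 2.34% of those of lower genes. Among the 22 higher seed genes, the G-box was in 63.6% of windows and the RY element in 40.9%. The W-box was in 22.7% of them and the evening element in 0%. The motifs were chosen with the values known. A match describes the letters and does not show a bound site. The separate list of abscisic acid and cold response genes gave 4 of 92 (4.35%, near the 3.59% of all genes), 2 lower and 2 higher. NCED3, which makes an abscisic acid precursor, was at 1.09 against 3.04 FPKM, and LTI65, an abscisic acid-induced gene, was at 1.35 against 0.334 FPKM.

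Enzymes of amino acid breakdown formed the other group of higher genes, and these were well transcribed. The list was put together after the values were seen. Of 34 annotated genes 7 (20.6%) were listed, against 3.59% of all protein-coding genes. All 7 were higher, beside 36.4% of all nuclear entries. All 7 were also absent from the OX sheets, beside 40.1% of all higher nuclear entries. BCAT2 (AT1G10070), a branched-chain aminotransferase, was at 167 FPKM in the first column against 49.9 FPKM in the second, 3.35-fold higher. LKR/SDH (AT4G33150), which starts lysine breakdown, was at 41.3 against 13.6 FPKM. IVD, which acts further along the leucine pathway, was at 116 against 49.7 FPKM. Leucine, lysine, threonine and glutamate breakdown were all represented. THA1, a threonine aldolase, was at 125 against 56.6 FPKM. GDH2, a glutamate dehydrogenase subunit, was at 492 against 231 FPKM. STR15 (also called SEN1), a gene raised by darkness and senescence, had the highest level among the senescence and sugar starvation list, at 1653 against 736 FPKM. That list as a whole was mixed, with 4 higher and 2 lower genes.

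Transporters, enzymes and regulators made up the rest of the strongest higher genes absent from the OX sheets. AT5G18840, of the major facilitator transporters, was at 25.7 against 3.66 FPKM, 7.04-fold higher. AT1G15125, a methyltransferase family gene, was at 58.7 against 15.7 FPKM. WRKY26, a WRKY transcription factor, was at 24.0 against 6.47 FPKM. LIP2, a lipase that aphids induce, was at 39.5 against 14.2 FPKM, and AT4G25580, a CAP160 family gene, at 11.1 against 3.13 FPKM. The largest fold of any higher gene, 31.5, belonged to the pseudogene AT5G35935, at 1.58 against 0.0501 FPKM. CSD2 and CCS, the chloroplast copper/zinc superoxide dismutase and the chaperone that loads it with copper, were both higher, at 172 against 84.7 FPKM and 41.7 against 19.6 FPKM. COPT2, a copper transporter that low copper raises, was lower, at 7.60 against 22.3 FPKM.

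Defence genes were mixed. Of 293 salicylic acid and defence genes, 16 (5.46%) were listed, 8 lower and 8 higher, a share not far from the 3.59% of all genes. PCC1, a gene controlled by pathogens and the clock, was at 6.86 against 0.408 FPKM, 16.8-fold higher. BG2 (also called PR2), a beta-glucanase marker of salicylic acid, was at 1.67 against 0.159 FPKM. Both were in the OX sheets too. On the lower side of that list MLO12, of a family known for mildew susceptibility, had the largest fold, 3.88. Receptor-like kinases and proteins, a separate list, gave 17 of 306 (5.56%), 13 lower and 4 higher. SIRK (also called FRK1), a receptor kinase marker of immune signalling, was at 0.156 against 2.13 FPKM, 13.6-fold lower. The jasmonate and wounding list gave 12 of 64 (18.8%), 8 lower and 4 higher. Of the 8 lower genes, 5 are the jacalin lectins above, so most of that side is a lectin family. VSP2, a vegetative storage protein raised by wounding, was at 37.5 against 11.3 FPKM. VSP1 was at 6.06 against 2.42 FPKM. Glutathione S-transferases, detoxifying enzymes, gave 4 of 58 (6.90%), all lower, led by GSTU11 at 0.151 against 1.18 FPKM. The close copies GSTF6 and GSTF7 were 4.23-fold and 2.95-fold lower, with an uncertain split of reads.

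Transcription factor families differed in how many of their members were listed. MYB factors were listed with 7 of 271 (2.58%, below the share of all genes), all higher, among them MYB29, a regulator of aliphatic glucosinolates, at 4.49 against 1.51 FPKM. It lies in a run of 3 higher neighbours with ANAC080 and MYB76 on chromosome 5. MYB59 was the most strongly transcribed, at 47 against 20.7 FPKM. NF-YA subunits gave 3 of 10 (30%), all higher. Clock genes gave 3 of 39 (7.69%), against 3.59% of all protein-coding genes. They were the pseudo-response regulators APRR3, APRR5 and APRR9, which were 2.67-fold, 2.15-fold and 2.12-fold higher. Subunits of Mediator, the complex that links transcription factors to RNA polymerase, gave 4 of 41 (9.76%), all higher. MED37D, which carries a Mediator name but was not in that list, was lower, at 0.536 against 2.47 FPKM. The Mediator and NF-YA lists were put together after the values were seen. ERF and DREB factors gave 9 genes (7.38% of those annotated), 5 lower and 4 higher. ERF114, at 0.123 against 1.71 FPKM, had the largest fold of the lower genes absent from the OX sheets, 13.9. FT, which carries the flowering signal from leaf to shoot tip, was at 1.76 against 0.674 FPKM. Chromatin genes gave only 4 of 282 entries, SRT1 included, and the other histone deacetylase among them was HDA18, at 0.309 against 0.640 FPKM.

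**Figure D5:**
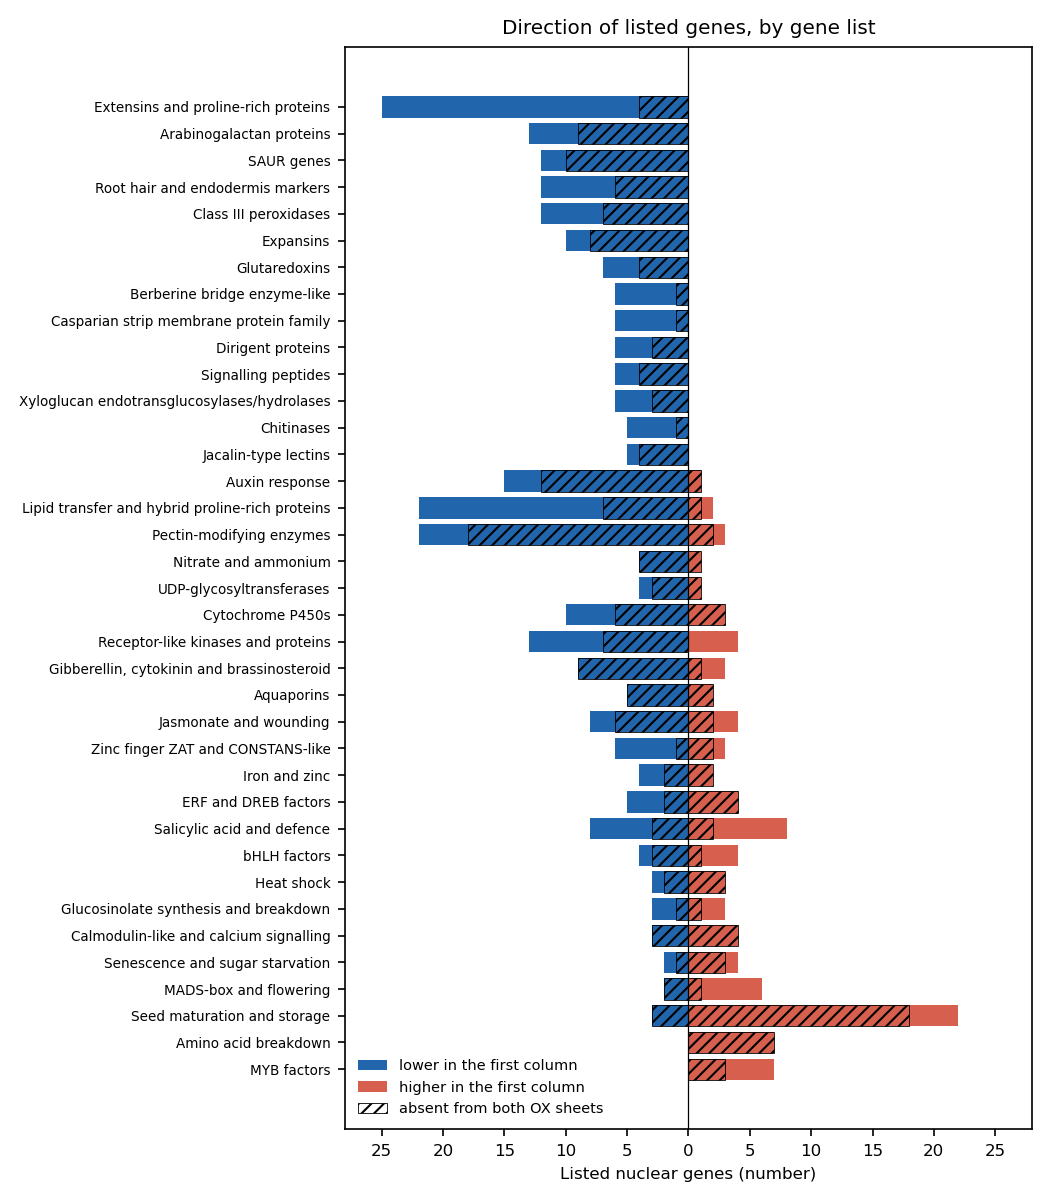
Number of listed nuclear genes lower (blue, left) and higher (red, right) in the first column for every gene list that has 5 or more listed members, with hatching for genes absent from both OX sheets. Extensins reach 25 lower genes with 4 hatched, and seed maturation genes reach 22 higher genes with 18 hatched.

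A small set of genes lay on opposite sides of the second column in the 2 lines, higher in the RNAi sheets and lower in the OX sheets. There were 11 such genes among the 496 nuclear entries that the OX sheets also list, and no nuclear entry with a regular locus had the reverse arrangement. All the other shared nuclear entries, the great majority, lay on the same side of the second column in both lines. AIR1, for example, was lower in both, and PCC1 higher in both. AT1G68250 was at 17.4 FPKM against 1.64 FPKM in the RNAi sheet, and at 0.261 against 1.76 FPKM in the OX sheet. PI (PISTILLATA), a floral organ identity gene, was at 22.6 against 9.80 FPKM and, in the OX sheet, at 3.21 against 10.5 FPKM. AT3G15670, an LEA gene, was at 1.29 against 0.471 FPKM and, in the OX sheet, at 0.0704 against 0.502 FPKM. The oleosin gene AT3G01570 was at 1.53 against 0.626 FPKM and, in the OX sheet, at 0.212 against 0.672 FPKM. The columns compared share the wild type libraries, so each pair of ratios shares its denominator.

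Most listed genes had no listed neighbour. Among the 984 protein-coding entries, 112 lay in 54 runs of directly neighbouring listed genes, and 40 of the 54 runs had 1 direction, 31 lower and 9 higher. None was longer than 3 genes.

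Organelle genes stood on 1 side only. All 55 chloroplast and 21 mitochondrial entries were lower, with median folds of 5.35 and 2.80, and 1 of the 76 was absent from the OX sheets. RPS19 and RPL16, ribosomal proteins of the chloroplast, were at 11.7 against 188.5 FPKM and 13.1 against 207.8 FPKM. Organelle genes made up 12.5% of the summed FPKM of all regular entries in the first column and 26.4% in the second. A further 13 nuclear entries, all lower and all in the OX sheets, lie between 3 and 3.7 Mb of chromosome 2, where a copy of the mitochondrial genome is inserted. Reads of these copies and of the mitochondrial genes may be divided wrongly between them. If FPKM is scaled to all mapped fragments alone, a fall of abundant organelle transcripts also moves the values of other genes. The second column differed from the wild type column of the OX sheets by a near-constant factor (median log2 ratio -0.08), so the scaling may also depend on the comparison. The part of organelle transcripts in the nuclear result was not tested.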

How the data were processed

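Reads were processed with TopHat2 2.1.1, Cufflinks 2.2.1 and Cuffdiff on TAIR10, per the submitters' processing notes, without roles or order. The authors deposited 1 FPKM value per group and gene, the log2 ratio of the second over the first value, a p-value with its q-value, and a fold score that differs in kind between sheets and was not used, per the file headers. How the 3 libraries of a group were pooled is not given in the sources used here. Only genes past the authors' limits are in the sheets.

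From these values, folds (the higher over the lower FPKM, no pseudocount) and log2 ratios of the first over the second column were computed in Python 3.11.15 with pandas 2.3.3. The sheets hold no value per library, so the planned limma fit on log2(FPKM + 1) was not possible, and entries were counted. Loci are TAIR10 as deposited, counted from 1. Identifiers were matched to the RefSeq annotation of TAIR10.1, and 1034 of 1036 nuclear ones were found.

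Members and the 48 gene lists were chosen with earlier results of these data known. After the values were seen, 10 lists were added (SAUR, dirigent, jacalin, Casparian strip family, glutaredoxins, berberine bridge, chitinases, Mediator, NF-YA, amino acid breakdown) and 14 were edited to remove genes caught by name alone. Named genes were SRT1, the 12 largest folds per direction with at least 5 FPKM, the same among genes absent from the OX sheets, up to 6 members per list, and entries at the limits, with exceptions marked in the text. Counting was tested on simulated data.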

Additional observations from a re-analysis of the deposited data

How the results depend on the processing

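Requiring a log2 ratio of at least 1.5 left 212 lower and 91 higher nuclear genes, and 128 absent from the OX sheets. Requiring at least 5 FPKM in the higher column left 285, 131 and 218. A ratio of at least 2-fold on the log2(FPKM + 1) scale left 273, 105 and 173. These limits are subsets of the listed genes by construction. A q-value of at most 0.01, the entries with spaces in the locus, the organelle genes, and, chosen after seeing the data, leaving out the chromosome 2 region or SRT1 kept every count within 1.5 times. Of 37 lists with at least 5 listed members, 26 had 75% or more on 1 side. Both counts include lists put together after the values were seen. All of those lay wholly on 1 side, so they were bound to count among the 26. Of 141 list shares under the 4 limits, 99 moved by less than 10 percentage points and 2 reversed: the nitrate and ammonium list to 0% lower on the log2(FPKM + 1) scale, where GDH2 alone remains, and the MADS-box and flowering list to 100% lower at a log2 ratio of at least 1.5, where AGL8 alone remains. No paired analysis was possible because the sheets hold 1 value per group, and leaving out each replicate was not run for the same reason. Depth is unknown, and genes below 1 FPKM rest on few reads.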

Other observations

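Precursors of 2 microRNAs were among the noncoding entries. MIR408, whose microRNA is made when copper is scarce, was at 0.129 FPKM in the first column against 0.561 FPKM in the second, and MIR156C, which holds back the adult phase, was at 1.77 against 3.68 FPKM. Both were absent from the OX sheets, and both were named after their values were seen. FPKM of precursors does not measure the mature microRNA.

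The 3 entries nearest the authors' limit on the lower side were AT2G07808, AT1G02180 and AT3G27400, and on the higher side AT3G13740, CYP71B22 and AT1G10320, all at 2.00-fold. The largest q-value, 0.0496 in the authors' deposited table, belonged to AT1G51055, at 0.281 against 1.23 FPKM. The ratio of p to q in that table puts 50.2% of all the authors' tests at or below the largest listed p-value.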
